A study of Rattus norvegicus with 6 samples.

Results

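The genes described here handle calcium in the skeletal muscle fibre. The 10 genes were chosen by name for their known roles, with earlier results of these data known. Of these, *Atp2a1*, *Casq2*, *Cacng1*, *Pvalb*, *Sln* and *Pln* have a row among the 26419 transcripts of the array, each a single row matched through its RefSeq accession. The other 4 genes, *Ryr1*, *Atp2a2*, *Casq1* and *Cacna1s*, have no row with a matched accession and were not analysed here. Therefore the 2 isoform comparisons planned here, *Atp2a1* with *Atp2a2* and *Casq1* with *Casq2*, could not be made within a pup. Each pair is represented by a single gene. RNA was measured in 6 male Wistar rats on day 1 after birth, from soleus and gastrocnemius combined, with 1 single-colour array per pup. Lower birth weight (LBW) pups, from percentiles 5 to 25 of birth weight, were compared with average birth weight (ABW) pups, the newborn controls, with 3 pups per group. The sample labels place the controls at percentiles 25 to 75, whereas the treatment protocol of the same labels gives 50 to 75. No pup was treated or carried an allele of interest, and litter membership is not given, so that pups of a group may or may not share a dam. The authors deposited 1 normalised log2 value per transcript and pup, which is a brightness with no detection call, and the level of a gene cannot be set against that of another gene. The tissue label was checked against *Acta1*, the sarcomeric actin of skeletal muscle, which lay between 15.15 and 15.41 on the log2 scale in the 6 pups, where the brightest transcript of any array was at 15.49. *Nppa*, a hormone gene of the heart, lay between 5.14 and 5.39, where the dimmest transcripts of the arrays were between 4.58 and 4.69.

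When a muscle fibre is excited, the dihydropyridine receptor of the transverse tubule opens the ryanodine receptor of the sarcoplasmic reticulum, and the calcium set free binds troponin and starts contraction. Relaxation follows when the SERCA pumps return calcium to the reticulum, where calsequestrin holds it. In fast fibres the pump is SERCA1 (*Atp2a1*) and the store protein is calsequestrin 1, while slow fibres and the heart use SERCA2. Calsequestrin 2 (*Casq2*) is found in the heart and in slow fibres, where it need not be the only calsequestrin. Sarcolipin (*Sln*) and phospholamban (*Pln*) are small membrane proteins that restrain the pumps, and parvalbumin (*Pvalb*) is a soluble calcium buffer of fast fibres that accumulates as muscle matures after birth.

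The DNA just before the start of 3 of these genes is shown for orientation, for the fast pump, a calsequestrin of slow fibres and the gene with the largest difference. The sequences are from RefSeq (assembly GRCr8) and cover the 250 bases upstream of the annotated start, read 5′ to 3′ on the strand of the gene. Capitals mark the E-box CANNTG, which reads the same way on both strands and is the site of the myogenic factors, and, in *Casq2*, also a match to the MEF2 consensus, searched on both strands. The window of *Atp2a1* is chr1:190475411-190475660 on the minus strand, that of *Casq2* chr2:192214306-192214555 on the plus strand and that of *Pvalb* chr7:111666290-111666539 on the minus strand.
Atp2a1: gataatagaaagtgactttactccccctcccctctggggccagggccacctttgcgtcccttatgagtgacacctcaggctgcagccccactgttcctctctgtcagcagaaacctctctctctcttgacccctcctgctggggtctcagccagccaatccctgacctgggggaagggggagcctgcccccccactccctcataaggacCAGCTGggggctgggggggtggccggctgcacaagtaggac
Casq2: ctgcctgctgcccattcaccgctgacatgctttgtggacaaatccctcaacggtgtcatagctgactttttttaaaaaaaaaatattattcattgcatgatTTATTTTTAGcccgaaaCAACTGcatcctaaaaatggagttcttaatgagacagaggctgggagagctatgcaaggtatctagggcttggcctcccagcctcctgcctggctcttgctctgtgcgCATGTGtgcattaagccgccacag
Pvalb: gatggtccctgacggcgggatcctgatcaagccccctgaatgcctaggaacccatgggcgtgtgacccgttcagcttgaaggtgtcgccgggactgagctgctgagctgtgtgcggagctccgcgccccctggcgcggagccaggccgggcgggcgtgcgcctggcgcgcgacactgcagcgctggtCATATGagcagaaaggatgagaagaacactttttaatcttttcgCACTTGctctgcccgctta
In *Atp2a1* the E-box is CAGCTG and starts 41 bases before the gene. *Casq2* has an E-box at 132 and another at 24 bases, and its MEF2 match starts 149 bases before the gene without overlapping either E-box. *Pvalb* has an E-box at 63 and another at 19 bases. A window was found for 4 of the 6 genes with a row, all 4 hold an E-box and 1, that of *Casq2*, holds a MEF2 match. Among all 33469 windows of this length, 65.5% hold an E-box, 12% hold CAGCTG on either strand and 2.96% hold a MEF2 match. A match of letters is a description of the sequence and not a site shown to be used.

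Of the 6 calcium handling genes, 5 lay higher and 1, *Pvalb*, lay lower in LBW pups, and none was called different. The log2 differences of LBW minus ABW ran from -1.04 for *Pvalb* to 0.38 for *Pln*, with a median of 0.21, whereas the median over all 26299 features tested was -0.02. The study took an unadjusted p under 0.05 together with a 1.5-fold change as its threshold, and by limma 0 of the 6 genes and 4.27% of all features passed it. At an unadjusted p under 0.05 alone, 1 of the 6 genes passed, *Sln*, while 12.4% of all features did. After Benjamini-Hochberg adjustment over all features no gene passed, nor did any other feature (0% of 26299). The 95% intervals of *Atp2a1*, *Casq2*, *Cacng1* and *Sln* lay within a 1.5-fold change in either direction, so that for these 4 genes a larger difference between the group means is outside the interval. The intervals of *Pvalb* and *Pln* reached beyond it.

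**Figure D1:**
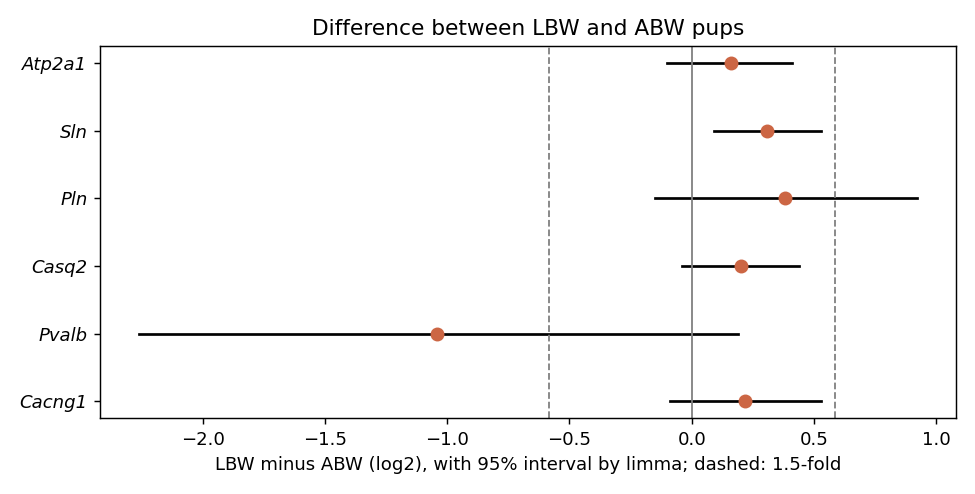
LBW minus ABW difference on the log2 scale for the 6 calcium handling genes (points), with the 95% interval by limma (lines), and dashed lines at a 1.5-fold change. Only the interval of *Sln*, from 0.09 to 0.53, leaves out 0, and the interval of *Pvalb*, from -2.26 to 0.19, is the widest.

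*Sln*, whose product uncouples or slows the pump, lay within percentiles 98.3 to 99.6 of the arrays. Its log2 level was 14.52, 14.67 and 14.62 in LBW 1, 2 and 3 and 14.29, 14.38 and 14.20 in ABW 1, 2 and 3. Every LBW pup thus lay above every ABW pup, and the gap of 0.137 between the nearest pups was larger than the SD within either group. The LBW mean was 14.60 ± 0.08 (SD, n = 3), against 14.29 ± 0.09 (SD, n = 3) for the controls. The log2 difference was 0.31 (SE 0.09), a fold change of 1.24 with a 95% interval of 1.064 to 1.445, and the adjusted p by limma was 0.305 (unadjusted p = 0.0132). The exact permutation test of the 6 values gave a 2-sided p of 0.1, the smallest that 3 pups against 3 allow. With any 1 pup left out the log2 difference of *Sln* stayed between 0.26 and 0.35.

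*Atp2a1*, the fast-fibre pump itself, lay within percentiles 98.9 to 99.7 of the arrays. Its log2 level was 14.62, 14.78 and 14.48 in LBW 1, 2 and 3 and 14.47, 14.54 and 14.39 in ABW 1, 2 and 3. The groups overlapped, since LBW 3 lay below ABW 2. The log2 difference was 0.16 (SE 0.11), with a 95% interval of -0.10 to 0.41 and an adjusted p of 0.598 by limma (exact permutation test, 2-sided p = 0.2). Without LBW 2 the difference was 0.08.

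*Pln*, which restrains SERCA2 in slow fibres and in the heart, had a low place on the arrays (percentiles 36.9 to 45.3), and how far this lies above background is unknown. Its log2 level was 7.76, 8.15 and 7.31 in LBW 1, 2 and 3 and 7.54, 7.17 and 7.36 in ABW 1, 2 and 3. LBW 1 and LBW 2 lay above all ABW pups and LBW 3 lay among them. The log2 difference was 0.38 (SE 0.22), with a 95% interval of -0.15 to 0.92 and an adjusted p of 0.532 by limma (exact permutation test, 2-sided p = 0.3). It depended on single LBW pups, as it was 0.18 without LBW 2 and 0.60 without LBW 3, and in the latter case *Pln* passed the threshold of the study (unadjusted p = 0.0147, adjusted p = 0.275 by limma).

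*Casq2*, a calsequestrin of slow fibres and of immature muscle, lay within percentiles 96.5 to 97.8 of the arrays. The pups had log2 levels of 13.99, 13.95 and 13.94 in LBW 1, 2 and 3 and 13.92, 13.72 and 13.65 in ABW 1, 2 and 3. The 3 LBW pups were close together, with a mean of 13.96 ± 0.03 (SD, n = 3), and above the ABW pups at 13.76 ± 0.14 (SD, n = 3), but LBW 3 and ABW 1 were only 0.019 apart. The log2 difference was 0.20 (SE 0.10), with a 95% interval of -0.04 to 0.44 and an adjusted p of 0.472 by limma (exact permutation test, 2-sided p = 0.1). Leaving out ABW 1, the ABW pup nearest the LBW pups, gave 0.28, and leaving out ABW 3 gave 0.14.

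*Pvalb* differed most between the groups and also between the pups of a group. Its log2 level was 7.44, 8.79 and 6.87 in LBW 1, 2 and 3 and 8.31, 8.58 and 9.32 in ABW 1, 2 and 3. LBW 1 and LBW 3 lay below all ABW pups, while LBW 2 lay above ABW 1 and ABW 2. The 6 pups spanned 2.45 on the log2 scale, against 0.34 to 0.98 for the other 5 genes, and the gene ranged from percentile 33.9 to 55.8 of the arrays. The LBW mean was 7.70 ± 0.98 (SD, n = 3), and that of the controls was 8.74 ± 0.52 (SD, n = 3). The log2 difference was -1.04 (SE 0.51), a fold change of 0.487 with a 95% interval of 0.208 to 1.14, and an adjusted p of 0.468 by limma (exact permutation test, 2-sided p = 0.3). Without LBW 2 it was -1.58, which passed the threshold of the study with an unadjusted p of 0.00409 and an adjusted p of 0.153 by limma. Without LBW 3 it was -0.63. Because the RNA is from whole muscle, fewer fibres that express a gene and less of its RNA per fibre cannot be told apart.

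*Cacng1* encodes the gamma subunit of the dihydropyridine receptor of skeletal muscle, and was the only subunit of this receptor among the 6 genes. On the log2 scale it was at 13.18, 13.52 and 13.13 in LBW 1, 2 and 3 and 13.12, 13.12 and 12.93 in ABW 1, 2 and 3. The groups did not overlap, but LBW 3 exceeded the highest ABW pup by only 0.008, far less than the SD of 0.21 in LBW and 0.11 in ABW pups. The log2 difference was 0.22 (SE 0.13), with a 95% interval of -0.09 to 0.53 and an adjusted p of 0.541 by limma (exact permutation test, 2-sided p = 0.1). It was 0.10 without LBW 2.

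**Figure D2:**
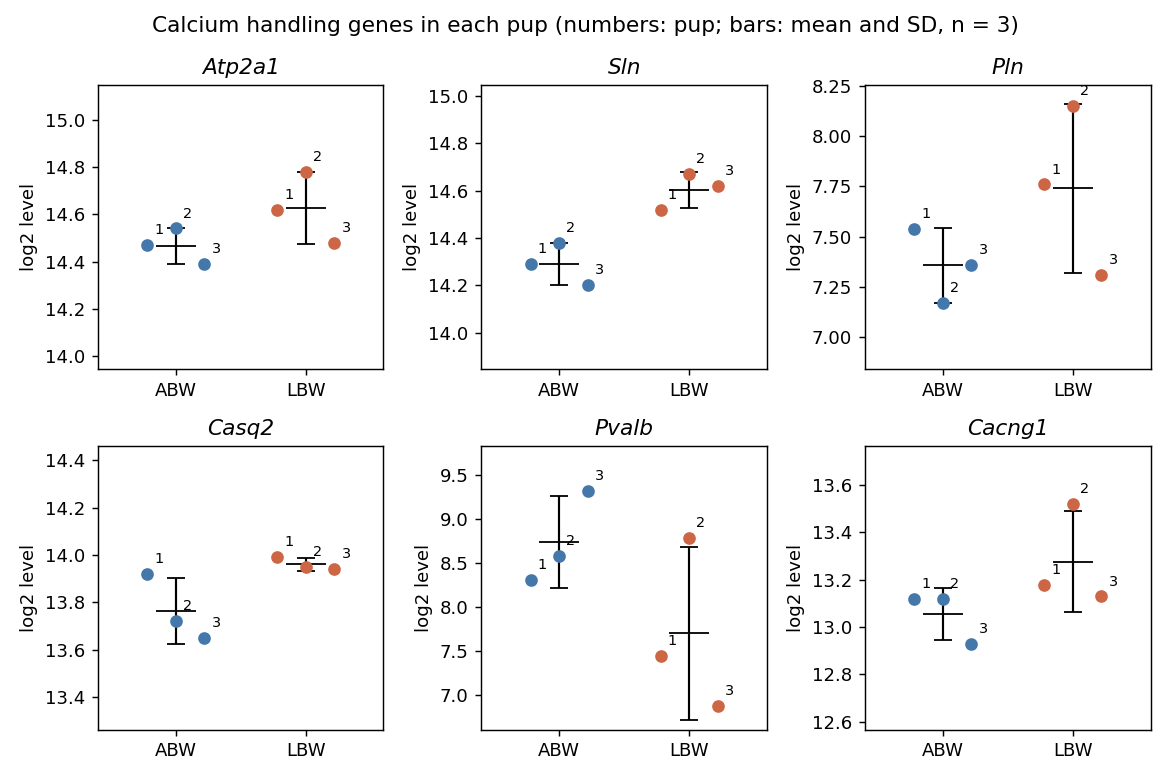
Log2 level of the 6 calcium handling genes in each pup (points, with the pup's number), with the group mean and SD (bars, n = 3), on a separate scale for each gene. *Sln* is separated between LBW and ABW pups by 0.137, *Casq2* and *Cacng1* by less than 0.02, and in *Pvalb* LBW 2 at 8.79 lies among the ABW pups.

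In all, 3 of the 6 genes (*Sln*, *Casq2* and *Cacng1*) had LBW values wholly above the ABW values and none had them wholly below. Over all features, the LBW values lay wholly above in 7.27% and wholly below in 10.1%. LBW 2 had the highest value of the LBW pups in 5 of the 6 genes and the highest of all pups in 4, the exceptions being *Casq2*, where LBW 1 was highest, and *Pvalb*, where ABW 3 was. ABW 3 was the lowest pup in 4 of the 6 genes, *Atp2a1*, *Sln*, *Casq2* and *Cacng1*. These are counts within the same 6 arrays, so that a pup high in a muscle gene may be high in several.

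Markers of other tissues were compared in the same pups. For these and all other lists, a gene with a row is one whose accession was matched. The array holds further list genes under accessions that were not matched, and these were not read. Of the 9 bone markers with a row, all 9 were higher in LBW pups and 5 were called, and their summed level (log2 of the sum) was 12.03 to 15.80 in LBW and 11.02 to 11.32 in ABW pups. A summed level follows mainly the brightest genes of a list and does not weigh its genes equally. The brightest were *Col2a1* for cartilage, *Fabp4* for adipocytes and *Tnnt2* for cardiac muscle. Averaged over the list and taken against the ABW pups, bone markers stood at 3.21, 0.54 and 4.15 (log2) in LBW 1, 2 and 3, while *Pvalb* was at -1.30, 0.05 and -1.87 in the same pups. Within the LBW group the order of the pups in *Pvalb* was thus the reverse of that in the bone list. In the ABW pups the order was the same in both. *Pvalb* was at -0.43, -0.15 and 0.58 and the bone list at -0.13, -0.02 and 0.16 in ABW 1, 2 and 3. Among the LBW pups *Atp2a1*, *Cacng1* and *Pln* also had the reverse of the bone order, with LBW 2 highest and LBW 3 lowest. By contrast, *Sln* lay at 0.23, 0.38 and 0.33 above the ABW mean and *Casq2* at 0.23, 0.19 and 0.18. In the ABW pups *Atp2a1*, *Cacng1* and *Pln* had neither the bone order nor its reverse. *Atp2a1* and *Cacng1* were highest in ABW 2 and lowest in ABW 3, and *Pln* was highest in ABW 1 and lowest in ABW 2. With 3 pups per group few orders are possible, so a shared order is a description only. Of 5 cartilage markers with a row, 4 were higher in LBW and 1 was called, and their summed level, 13.55 to 14.59 in LBW and 13.47 to 13.79 in ABW pups, overlapped. All 3 neutrophil precursor markers with a row were called higher, with a summed level of 11.70 to 13.04 in LBW and 10.16 to 10.69 in ABW pups. All 7 adipocyte markers with a row were lower, 2 of them called, with an overlapping summed level of 15.17 to 15.48 in LBW and 15.44 to 15.92 in ABW pups. All 4 erythroid markers with a row were lower and 0 were called. The list mean stood at -0.42, 0.04 and -0.65 against the ABW mean in LBW 1, 2 and 3, the order seen in *Pvalb*. In ABW 1, 2 and 3 it stood at 0.27, -0.02 and -0.25, the reverse of the order in *Pvalb*. The Schwann cell list had 4 of 7 higher, 3 lower and 0 called. It had the order of *Pvalb* in both groups, at 0.08, 0.14 and -0.39 in LBW and -0.07, 0.02 and 0.04 in ABW pups. The part of these tissues in the values of the calcium handling genes was not tested. The skeletal muscle list itself had a summed level of 17.08 to 17.13 in LBW and 16.98 to 17.12 in ABW pups, with 0 of 7 genes called. Because *Casq2* and *Pln* are also genes of the heart, cardiac markers were examined. Of the 9 with a row, 7 were higher and 2 lower in LBW, with a median log2 difference of 0.09, and 0 were called. The summed level was 14.51 to 14.76 in LBW and 14.37 to 14.62 in ABW pups. It mostly reflects *Tnnt2*, which alone was at 14.41, 14.63 and 14.36 in LBW and 14.50, 14.41 and 14.24 in ABW pups. By limma 2 of the 9 had an unadjusted p under 0.05, where 12.4% of all features did. These 2, named after their values were seen, were the cardiac troponin I gene *Tnni3*, at 10.34, 10.37 and 10.37 in LBW and 10.20, 9.54 and 9.67 in ABW pups, and the myosin heavy chain gene *Myh6*. They differed by 0.55 (SE 0.17, adjusted p = 0.315 by limma) and 0.36 (SE 0.12, adjusted p = 0.322 by limma), both without overlap between the groups. Over all features the LBW values lay wholly above in 7.27%. *Nppa* was at 5.31, 5.35 and 5.24 in LBW and 5.14, 5.39 and 5.34 in ABW pups. The part of cardiac genes in the values of *Casq2* and *Pln* was not tested.

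**Figure D3:**
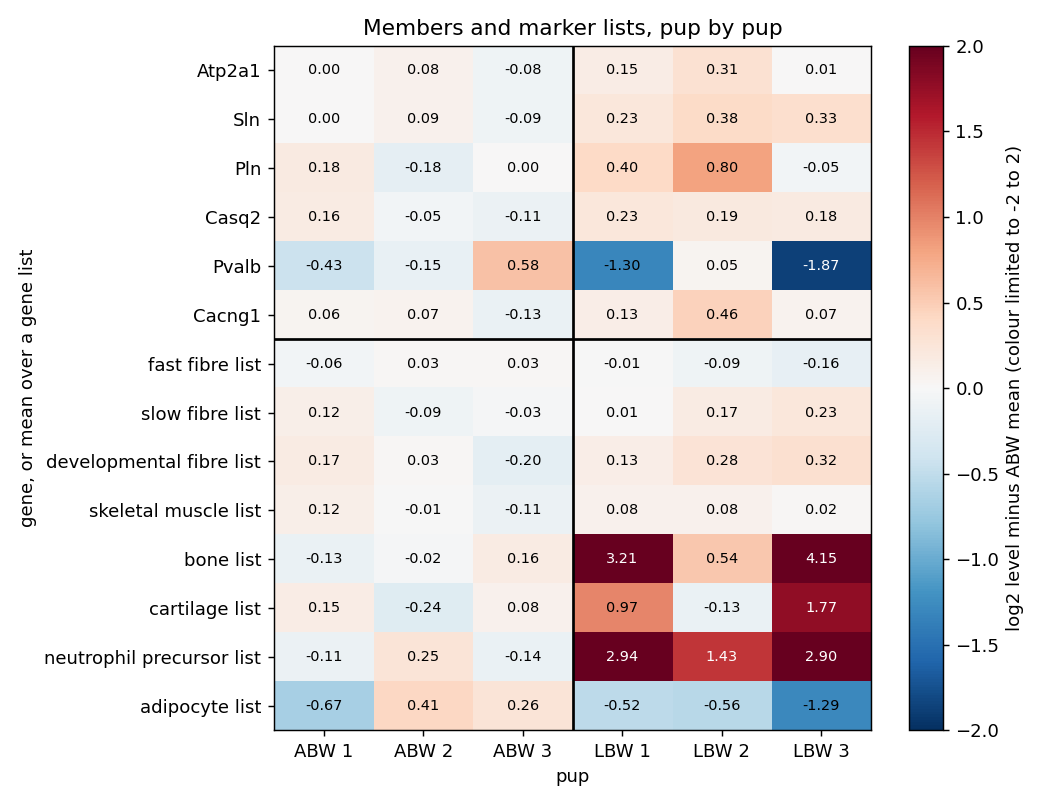
Log2 level of each calcium handling gene (above the line) and mean over each marker list (below the line) in each pup, as the difference from the ABW mean, with the value printed in each cell. *Pvalb* is lowest in LBW 1 and LBW 3, at -1.30 and -1.87, the pups in which the bone list is at 3.21 and 4.15. Among the ABW pups *Pvalb* and the bone list are both highest in ABW 3, at 0.58 and 0.16.

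For the question of fast against slow isoforms, only the fast member of the pump pair could be read. Of the calsequestrin pair only *Casq2*, found in slow fibres, could be read. *Atp2a1* (0.16) and *Casq2* (0.20) both lay slightly higher in LBW, and the 95% interval of each included 0. The contractile genes of the same fibres give the context. Of the 6 fast-fibre genes with a row, 1 was higher and 5 were lower in LBW with a median log2 difference of -0.07, and 0 were called. Those that differed most were *Actn3*, the actinin of fast fibres, at -0.24, the myosin heavy chain gene *Myh4* at -0.19, the troponin T gene *Tnnt3* at -0.13 and the light chain gene *Myl1* at 0.07. The lower genes left unnamed were almost level, at -0.02 at most. *Actn3* was at 12.10 in LBW 3, the pup lowest in *Pvalb*, and between 12.74 and 13.23 in the other pups, so that without LBW 3 its difference turned to 0.07. Of the 8 slow-fibre genes with a row, 6 were higher and 2 lower, with a median of 0.19 and 0 called. *Myh7*, the slow myosin heavy chain, differed by 0.41 (SE 0.20, adjusted p = 0.474 by limma), *Csrp3* by 0.30 (SE 0.12, adjusted p = 0.395 by limma), the slow troponin I gene *Tnni1* by 0.27 and the light chain gene *Myl2* by -0.23. Of the 5 genes of developing fibres with a row, all 5 were higher and 0 were called, with *Ncam1* at 0.48, the acetylcholine receptor subunit genes *Chrng* at 0.36 and *Chrna1* at 0.25, and the actin gene *Actc1* at 0.08. *Ncam1* passed the threshold of the study without LBW 2 (0.59) and without ABW 1 (0.61), and *Chrng* was at 0.14 without ABW 3. The difference between the fast and the slow list was not tested.

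Beyond these genes, 50 of 72 further calcium genes had a row, of which 32 were higher and 18 lower in LBW, with a median log2 difference of 0.09. At the threshold of the study 1 was called higher and 0 lower, and 10 of the 50 had an unadjusted p under 0.05, against the 12.4% of all features given above. The gene called was *Slc8a3*, a sodium-calcium exchanger of the cell membrane. Its log2 level was 8.46, 7.43 and 8.83 in LBW 1, 2 and 3 and 7.46, 6.98 and 6.91 in ABW 1, 2 and 3, so that LBW 2 lay just below ABW 1. The difference was 1.12 (SE 0.36, adjusted p = 0.325 by limma). It lost the call when LBW 1, LBW 3, ABW 2 or ABW 3 was left out, with differences of 0.82 to 1.05, and also under the methods' test (unadjusted p = 0.069) in place of limma. The LBW pups had the same order as in the bone list, with LBW 3 highest and LBW 2 lowest. The ABW pups had the reverse order, with ABW 1 highest in *Slc8a3* and ABW 3 highest in the bone list. The part of bone tissue in the values of *Slc8a3* was not tested. *Slc8a1*, the exchanger of heart and other tissues, varied little within a group, with 10.57, 10.59 and 10.60 in LBW and 10.24, 10.19 and 10.29 in ABW pups. The groups were 0.273 apart at their nearest pups, and the difference was 0.35 (SE 0.08, adjusted p = 0.264 by limma). *Orai1*, the channel of store-operated calcium entry, was at 10.67, 10.57 and 10.40 in LBW and 10.33, 10.16 and 9.76 in ABW pups, a difference of 0.47 (SE 0.16, adjusted p = 0.348 by limma). Without ABW 1 it was 0.59 and passed the threshold of the study (unadjusted p = 0.0122 by limma), and without ABW 3 it was 0.31.

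Among the 12 genes of release and of the triad (the junction of transverse tubule and reticulum) with a row, 9 were higher and 3 lower in LBW, and 0 were called. *Jph2*, which ties the tubule to the reticulum, was at 7.06, 7.12 and 6.96 in LBW and 6.77, 6.84 and 6.41 in ABW pups, a difference of 0.37 (SE 0.13, adjusted p = 0.356 by limma). Its place on the arrays was low (percentiles 27.8 to 36.4), and how far this lies above background is unknown. *Itpr1*, an inositol trisphosphate receptor, differed the other way, with 9.33, 9.19 and 9.47 in LBW and 9.57, 9.81 and 9.73 in ABW pups. This is a difference of -0.37 (SE 0.11, adjusted p = 0.307 by limma), with no overlap between the groups. *S100a1*, a calcium-binding protein that acts on the ryanodine receptor, was at 10.10, 10.49 and 9.66 in LBW and 10.36, 10.47 and 10.58 in ABW pups. Its difference was -0.39, and its LBW pups had the order seen in *Pvalb*, with LBW 2 highest and LBW 3 lowest. It was -0.59 without LBW 2, which passed the threshold of the study (unadjusted p = 0.0116 by limma), and -0.18 without LBW 3.

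Of the 9 genes of uptake, storage and binding with a row, 5 were higher and 4 lower, and 0 were called. *Hrc*, a calcium-binding protein inside the reticulum, was at 13.45, 13.53 and 13.60 in LBW and 13.35, 13.29 and 13.22 in ABW pups, a difference of 0.24 (SE 0.09, adjusted p = 0.356 by limma) without overlap. The pump gene *Atp2a3* differed by 0.35 and *Calb2* (calretinin) by 0.15, both with overlapping groups. *Calb2* also had a low place on the arrays (percentiles 21.6 to 27.3). Of the 5 mitochondrial genes, 0 were called, and *Micu2* and *Letm1* differed by -0.29 and 0.25. Of the 15 calcium-responsive enzymes and factors with a row, 0 were called. *Mylk2*, the myosin light chain kinase of skeletal muscle, was at 11.84, 11.98 and 11.81 in LBW and 11.60, 11.35 and 11.26 in ABW pups, a difference of 0.47 (SE 0.12, adjusted p = 0.275 by limma) without overlap. *Camk2b* and *Capn3* differed by 0.25 and 0.20, within the spread of the pups, and by 0.08 and 0.01 without LBW 2.

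**Figure D4:**
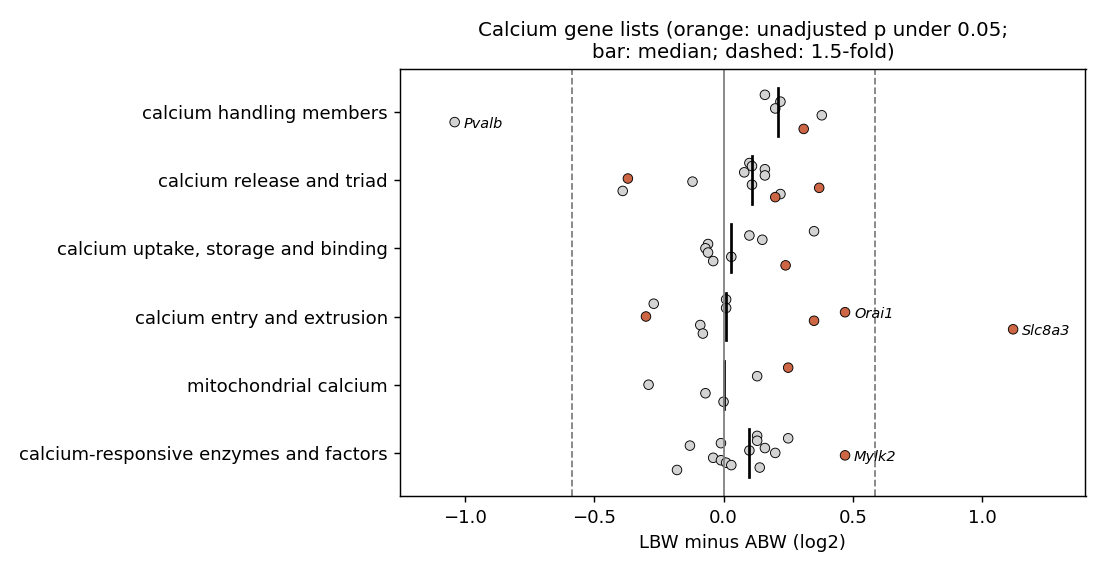
LBW minus ABW difference on the log2 scale for each gene of the calcium handling set and of 5 wider lists (points, orange where the unadjusted p by limma was under 0.05), with the median of each list (bar) and dashed lines at a 1.5-fold change. *Slc8a3* at 1.12 and *Pvalb* at -1.04 lie outside the dashed lines and the other genes plotted lie between them.

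The genes most like *Atp2a1* over the 6 pups were *Arl6ip5* (Pearson r = 0.994), *Gdf1* (r = 0.990) and *Or2t29* (r = 0.988), out of 9626 named genes compared. *Or2t29*, an olfactory receptor gene, lay at only 5.57 to 6.49 on the log2 scale. Of the calcium handling genes, *Cacng1* was closest to *Atp2a1* (r = 0.954, with 30 named genes at or above this value), followed by *Pln* (0.827), *Sln* (0.739) and *Casq2* (0.549), and *Pvalb* had the lowest value (-0.021). These values describe 6 arrays that share the group difference, and carry no test.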

How the data were processed

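Muscle RNA from 6 pups, 3 LBW and 3 ABW, was hybridized to NimbleGen single-colour (Cy3) arrays with 5 probes per transcript. The values deposited by the authors are on the log2 scale and were normalized by scripts of their own in R with Bioconductor packages. The submitters' processing notes name RMA. Background correction and settings are not given in the sources used here. The array design follows build RGSC3.4, so no gene coordinates are given on it.

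Rows were named by RefSeq accession through a gene table of GRCr8, which gave a symbol to 9747 of 26419 rows (36.9%). Rows of a symbol were averaged, leaving 26299 features. The LBW minus ABW difference was fitted by lmFit and eBayes (limma 3.58.1, R 4.3.3), 2-sided, with Benjamini-Hochberg adjustment over all features. An exact permutation test over the pups was added for single genes. The code was tested on simulated data. Array medians lay between 8.695 and 8.757, and precision is limited by how few arrays there are. Nothing states that pups are from separate litters, so that p-values measure the spread between these samples.

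Members and lists were chosen with earlier results of these data known. Named in the text are all members with a row, the calcium genes called, and those with the largest absolute difference in each list, at most 3 per calcium and 4 per fibre list. The 3 named genes with the highest Pearson correlation with *Atp2a1* were added, and *Acta1* and *Nppa* were named outside this rule as checks of the tissue. *Col2a1*, *Fabp4* and *Tnnt2* were also named outside it, as the brightest genes of their lists. A gene that the rule names is not reported here. The pups were grouped by sample title. Alternatives were the replicate block, leaving out each pup, quantile and median normalization, a filter of the dimmest 25%, an intensity trend, robust variance, array weights, the methods' 2-tailed Student's test, single rows and a fold change of at least 2. The planned isoform comparisons, *Atp2a1* minus *Atp2a2* and *Casq1* minus *Casq2*, were not made, because a gene of each had no matched row.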

Additional observations from a re-analysis of the deposited data

How the results depend on the processing

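No calcium handling gene changed direction under any of the 15 alternatives run for it. The number called at the threshold of the study, 0 of 6, ranged from 0 to 1 with each pup left out (*Pvalb* without LBW 2, *Pln* without LBW 3) and stayed 0 otherwise. The log2 difference lay between -1.58 and -0.63 for *Pvalb* and between 0.18 and 0.60 for *Pln* without any 1 pup. The number with an unadjusted p under 0.05 was 1, and ranged from 1 to 2 without 1 pup. It was 2 with an intensity trend, where *Casq2* joined *Sln*, and with array weights, where *Pln* did. No calcium handling gene passed the adjusted threshold in any fit. Over all features, 1124 were called, 584 by the methods' test and 335 at a fold change of at least 2, and the number past the adjusted threshold ranged from 0 to 125 without 1 pup, the latter without LBW 2. The methods' test is the Student's test of the paper's general statistics. The paper does not name the test it used for the arrays, so the count of 584 need not be that of the study. The difference of *Actn3* reversed without LBW 3, from -0.24 to 0.07, and was -0.49 without LBW 2. The cause was not tested. Same-numbered pups were not paired in the main fit, because nothing states what the numbers mean. Their deviations from the group means correlated at 0.087, 0.104 and 0.055. Those of differently numbered pups were all lower, from -0.096 to 0.021, so these values do not settle whether the pups are paired. With the replicate block, 1230 features and 0 calcium handling genes were called, and the difference of *Sln* stayed at 0.31 (adjusted p = 0.322 by limma). The isoform comparisons had no value under any setting. The lack of a detection call limits what can be said of *Pln*, *Pvalb* and other dim rows.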
